A study of Mus musculus with 4 samples.

Results

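Toll-like receptors (TLRs), their adaptors and kinases, and the cytosolic sensors of nucleic acids and peptidoglycan were examined in mouse aortic grafts. The 36 genes were matched by symbol to the rows of the deposited count table, which held 54752 gene IDs. All 36 had a row, and 35 passed the filter on low counts. The remaining gene, Trex1, which encodes the cytosolic DNA exonuclease, was listed at 0 counts in every library, and 100% of its exonic bases are also exonic in Atrip, which had 281 to 322 counts.

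Whole graft tissue was collected 4 weeks after transplantation of the abdominal aorta, from a group named ALLO (allografts in chronic rejection, per the series title) and a group named ISO, an abbreviation that is not spelled out. Each group had 2 libraries (n = 2 per group throughout), prepared from total RNA after removal of ribosomal RNA. Strain, sex, age and treatment were not given for either group, and no label states that the 2 libraries of a group were separate mice, so p-values measure the spread between these libraries only. The libraries held 17532344 to 20194854 counts. ISO replicate 1 had 10647 counts of Xist, the X inactivation transcript, and 0 of the Y-linked Ddx3y, whereas in the other libraries Xist stayed at 8 counts or fewer and Ddx3y ranged from 2105 to 2312. By these transcripts ISO replicate 1 was female and the other libraries male, so the ISO libraries were not from the same mouse. How far this sex difference within ISO moved the members was not tested.

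TLRs are membrane receptors that recognize microbial products and molecules released from damaged cells. TLR1, TLR2, TLR4, TLR5 and TLR6 work at the cell surface, where they bind lipopeptides, lipopolysaccharide or flagellin. TLR3, TLR7, TLR8, TLR9 and the rodent receptors TLR11, TLR12 and TLR13 work in endosomes, where most of them read nucleic acids. Signals pass through the adaptors MyD88 and TRIF to the IRAK kinases and to TBK1 and IKK-epsilon, and so to NF-kappaB and the interferon regulatory factors. MDA5 (Ifih1) and LGP2 (Dhx58) bind double-stranded RNA in the cytosol, AIM2 binds DNA, and ZBP1 binds Z-form nucleic acids. In the vessel wall, macrophages and dendritic cells are the best known carriers of these receptors, and smooth muscle and endothelial cells also carry some.

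Of the 35 genes tested, 27 rose in ALLO, none fell and 8 did not pass (edgeR's quasi-likelihood test, Benjamini-Hochberg adjusted p under 0.05 over all genes). Among all 16498 genes tested, 33.1% were called by the same rule, 18.4% higher and 14.8% lower. No member had an unadjusted p under 0.05 in the lower direction. Tlr11, Tlr12, Ticam2 and Aim2 passed the filter on low counts only through the ALLO libraries, so they could hardly have come out lower. The median log2 change was 2.48 over the 35 genes and 0.03 over all genes tested. All 7 endosomal receptors rose, as did 3 of 5 surface receptors, 4 of 5 cytosolic sensors, and both TBK1 and IKK-epsilon. Of the 8 adaptors and IRAK kinases, 4 rose and 4 did not pass. Normalized counts (CPM) are counts scaled to library size after composition scaling (TMM). In these, the 2 groups did not overlap for 32 of the 35 genes, 31 of them higher in ALLO. Over all genes tested, 72.5% did not overlap, 37.1% higher and 35.4% lower. With ISO replicate 1 left out, 25 members rose, beside 14% of all genes, and with ISO replicate 2 left out 24 rose, beside 11.7%. With ALLO replicate 1 left out it was 22 members and 11.8% of all genes, and with ALLO replicate 2 left out 27 members and 13.8%.

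**Figure D1:**
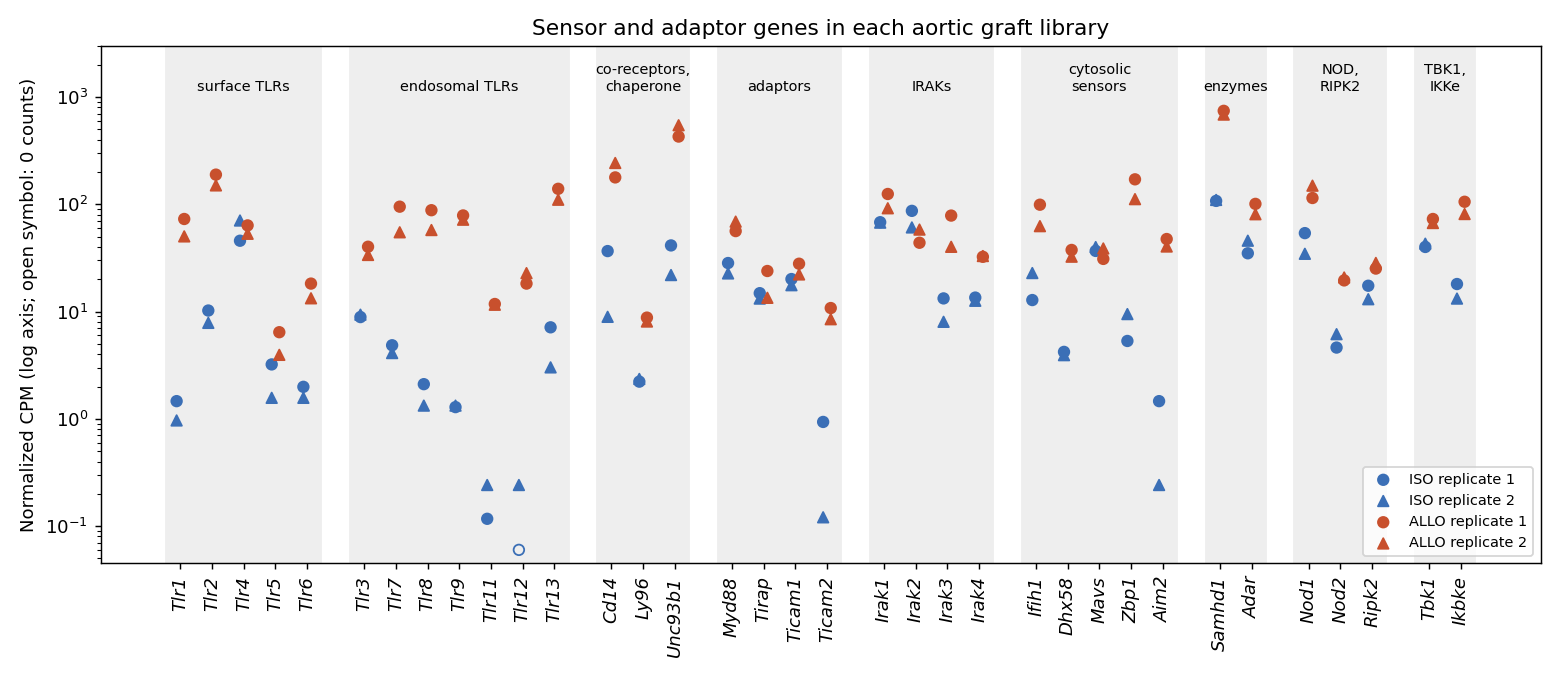
Normalized CPM (log axis) of the 35 tested genes, arranged by role, with 1 point for each library (circles for replicate 1, triangles for replicate 2, blue for ISO and red for ALLO; the open circle is a gene at 0 counts). The red points lie above the blue ones for 31 genes; the groups overlap for Tlr4, Tirap and Mavs, and Irak2 is lower in both ALLO libraries.

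Over all genes, 3032 were higher and 2437 lower (55.4% higher). When only library size was scaled, 3546 genes were higher and 1867 lower (65.5% higher), and the overall median shifted by 0.19 (log2). Changes below are relative to the composition scaling (TMM).

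In bulk tissue, more cells of a type and more RNA per cell cannot be told apart. The following summed marker levels move with the results below, and their part in them was not tested. Macrophage and monocyte markers rose in 11 of 14 cases and 3 did not pass. The log2 change was positive for 12 of the 14, and the lowest was -1.76. With another test (limma-voom), 12 rose and 1 fell. RPKM, the level per length of exon, are counts scaled to exon length and TMM-scaled library size. The summed RPKM of these markers was 686 and 228 in the ISO libraries and 6438 and 5596 in the ALLO libraries. Lyz2 held 34.7% to 64.5% of that sum in each library, and the complement genes C1qa, C1qb and C1qc 24.0% to 39.8%. T cell markers summed to 3.65 and 1.52 RPKM in ISO and to 174 and 148 in ALLO, and 8 of 8 rose. A marker with few counts in ISO passes the filter on low counts only through ALLO libraries, so it could hardly have come out lower. This limit bears on the T cell markers, whose median log2 change went from 6.36 to 12.08 with ISO replicate 1 left out. Conventional dendritic cell markers summed to 8.57 and 3.34 in ISO and to 63.2 and 99.2 in ALLO, with 5 of 8 higher. Smooth muscle markers fell in 7 of 7 cases, from 11010 and 10710 to 470 and 1049.

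ISO replicate 1 stood above ISO replicate 2 in several of these lists. B cell markers summed to 18.8 RPKM in ISO replicate 1 and 0.242 in ISO replicate 2, against 121 and 59.5 in ALLO. They rose in 1 of 7 cases, and in 7 of 7 without ISO replicate 1. Neutrophil markers summed to 199 and 15.9 in ISO and to 291 and 120 in ALLO, so the groups overlapped, and 2 of 7 tested rose (6 of 8 without ISO replicate 1). Plasmacytoid dendritic cell markers summed to 3.21 and 2.98 in ISO and to 11.9 and 7.31 in ALLO without Klk1, which was left out after its values were seen (2327 counts in ALLO replicate 1 and 8 in ALLO replicate 2). Most of the ISO sum was Tcf4. Without Tcf4 as well, the sums were 0.144 and 0.367 in ISO and 6.55 and 3.72 in ALLO. Of 5 tested plasmacytoid dendritic cell markers, 3 rose. Siglech, a defining marker of that cell type, had 6 counts in ISO and 321 in ALLO. With so few counts in ISO, Siglech could hardly have come out lower. No list had a marker at 0 counts in all libraries of a group. Between the ISO libraries, 22 of the 35 members had their higher value in replicate 1, and between the ALLO libraries 25 did. The median log2 difference of ISO replicate 1 over ISO replicate 2 was 0.22 for members with counts in both. The same counts were not made over all genes, so these cannot be read as a trait of the members.

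**Figure D2:**
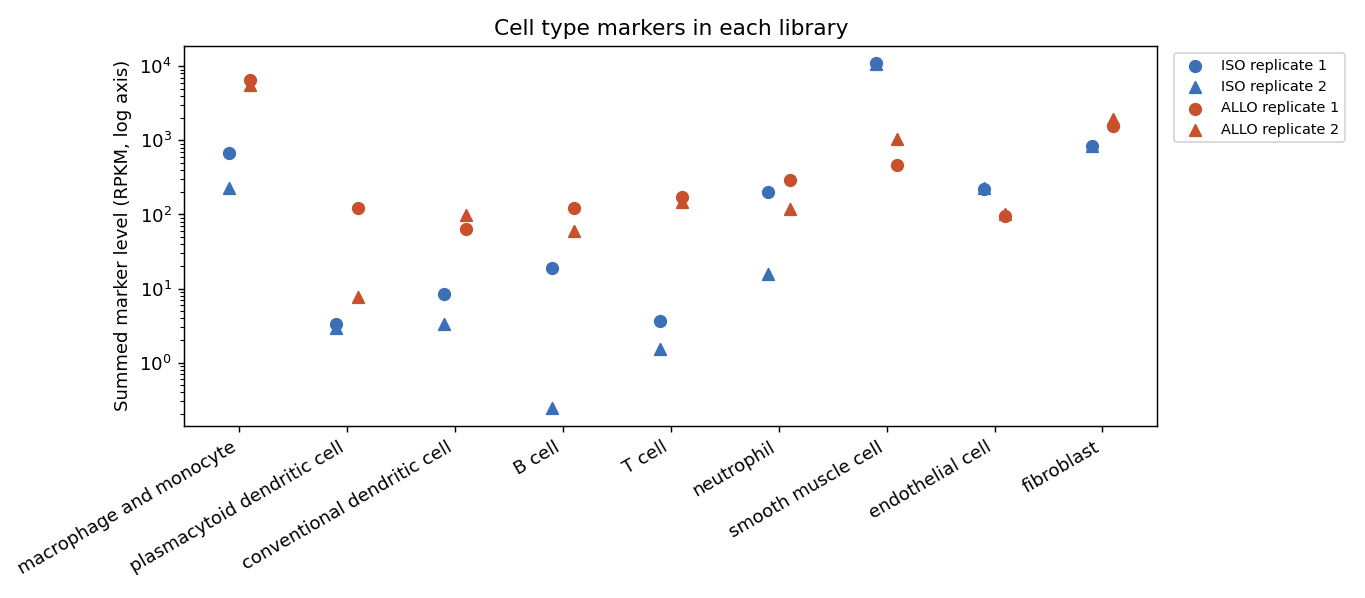
Summed RPKM (log axis) of 9 marker lists in each library, with blue for ISO, red for ALLO, circles for replicate 1 and triangles for replicate 2. Macrophage, dendritic and T cell sums are higher in both ALLO libraries, smooth muscle and endothelial sums are lower, and ISO replicate 1 is far above ISO replicate 2 for B cells and neutrophils. The plasmacytoid dendritic cell sum of ALLO replicate 1 includes 2327 counts of Klk1.

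Among the surface receptors, Tlr2, Tlr1 and Tlr6 rose, while Tlr4 and Tlr5 did not pass. TLR2 pairs with TLR1 or TLR6 to bind bacterial lipopeptides. Tlr2 (ENSMUSG00000027995.10, chromosome 3, 83836272 to 83841767, mm10) had 10.2 and 7.85 CPM in ISO and 189 and 150 in ALLO. It was 18.8-fold higher (log2 change 4.23 ± 0.26, SE, edgeR adjusted p = 0.00216). Tlr1 (ENSMUSG00000044827.10, chromosome 5, 64924679 to 64933563) had 1.46 and 0.966 CPM in ISO and 73.0 and 50.3 in ALLO. Its change was 50.4-fold (log2 5.66 ± 0.37, edgeR adjusted p = 0.00235). Its neighbour Tlr6 (chromosome 5, 64952031 to 64960097) had 1.99 and 1.57 CPM in ISO and 18.2 and 13.3 in ALLO, an 8.83-fold rise (edgeR adjusted p = 0.00531). All 3 genes were separated between the groups. Tlr1 and Tlr6 are close copies: 10.6% of the 75-base stretches of Tlr1 transcripts and 9.2% of those of Tlr6 also occur in another gene, chiefly in each other. How reads from such stretches were counted is not given in the sources used here, so the split between the 2 genes is uncertain.

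Tlr4 encodes the lipopolysaccharide receptor and had the largest share of TLR transcripts in both ISO libraries. Tlr4 (ENSMUSG00000039005.13, chromosome 4, 66827584 to 66930284) had 45.8 and 70.7 CPM in ISO and 63.6 and 53.2 in ALLO. The ALLO values lay between the 2 ISO values, and the log2 change was 0.00 ± 0.26 (edgeR adjusted p = 0.993). Its co-receptors rose. Cd14, which hands lipopolysaccharide to the receptor, had 36.7 and 8.93 CPM in ISO and 178 and 243 in ALLO, 9.24-fold higher (edgeR adjusted p = 0.0242). That value rested on single libraries: it was 23.4-fold without ISO replicate 1 and 5.66-fold without ISO replicate 2, and it no longer passed once either ALLO library was dropped (edgeR adjusted p = 0.0514 with replicate 1 dropped and 0.0643 with replicate 2 dropped). Ly96 encodes MD-2, the lipopolysaccharide-binding partner of TLR4. It had 2.22 and 2.35 CPM in ISO and 8.79 and 8.08 in ALLO, 3.68-fold higher (edgeR adjusted p = 0.0156, and 0.0538 without ALLO replicate 1). The flagellin receptor gene Tlr5 had 3.22 and 1.57 CPM in ISO and 6.42 and 3.95 in ALLO, with a log2 change of 1.11 ± 0.54 (edgeR adjusted p = 0.179).

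All 7 endosomal receptor genes rose, with a median log2 change of 5.40. Of these, Tlr11 and Tlr12 passed the filter on low counts only through the ALLO libraries, so they could hardly have come out lower. Tlr9 reads unmethylated CpG DNA. Tlr9 (ENSMUSG00000045322.10, chromosome 9, 106222598 to 106226883) had 1.29 and 1.33 CPM in ISO and 78.8 and 71.9 in ALLO. It was 57.4-fold higher, with a log2 change of 5.84 ± 0.23 (edgeR adjusted p = 0.00214), and 55.9- to 60.2-fold when any 1 library was left out. The spread between the replicates of a group was small beside the distance between the groups.

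Tlr7 and Tlr8, receptors for single-stranded RNA, are neighbours on the X chromosome. Tlr7 (ENSMUSG00000044583.13, 167304929 to 167330558) had 4.85 and 4.10 CPM in ISO and 95.1 and 54.9 in ALLO, 16.7-fold higher (edgeR adjusted p = 0.00359). Tlr8 (ENSMUSG00000040522.5, 167242696 to 167264329) had 2.11 and 1.33 CPM in ISO and 88.2 and 57.6 in ALLO, 42.3-fold higher (edgeR adjusted p = 0.00284). Tlr13, a mouse receptor for bacterial ribosomal RNA, lies elsewhere on the X chromosome. It had 7.13 and 3.02 CPM in ISO and 140 and 110 in ALLO, 24.6-fold higher (edgeR adjusted p = 0.00448) and 40.9-fold without ISO replicate 1. ISO replicate 1, the library with Xist, was the higher of the ISO libraries for 22 of the 35 members, as counted above. For Irak1, also on the X chromosome, the difference was 0.014 on the log2 scale. It was 0.24, 0.67 and 1.24 for Tlr7, Tlr8 and Tlr13. All 3 were called without either ISO library.

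Tlr3, the receptor for double-stranded RNA, had the smallest change of the endosomal group. It had 8.89 and 9.36 CPM in ISO and 40.2 and 33.7 in ALLO, 4.05-fold higher (edgeR adjusted p = 0.00531). Tlr11 and Tlr12, which bind profilin of protozoa, had few counts in ISO. Tlr11 had 2 and 4 counts in ISO and 229 and 255 in ALLO. Scaled to TMM-scaled library sizes, its counts were 64.9 times as high (95% counting interval 21.95 to 317), with an edgeR adjusted p of 0.0034. Tlr12 had 0 and 4 counts in ISO and 355 and 503 in ALLO. Its scaled counts were 173 times as high (95% counting interval 47.5 to 1430), with an edgeR adjusted p of 0.00511. Without ISO replicate 2 the ISO count of Tlr12 was 0, and the gene was at least 58.1-fold higher against a floor of 6 counts (3 read pairs). Without ISO replicate 1 its fitted value was 82.2-fold, against 163-fold over all libraries. Intervals and bounds cover counting error only, and PCR copies of a molecule cannot be told apart in these counts.

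Unc93b1 encodes the chaperone that carries the endosomal receptors from the endoplasmic reticulum. Unc93b1 (ENSMUSG00000036908.16, chromosome 19, 3935186 to 3949340) had 41.4 and 21.9 CPM in ISO and 429 and 546 in ALLO. It was 15.4-fold higher, with a log2 change of 3.94 ± 0.40 (edgeR adjusted p = 0.0045). At 172 RPKM on average it had the highest level per length of all 36 genes in ALLO, where it was sixth at 11.1 RPKM in ISO.

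**Figure D3:**
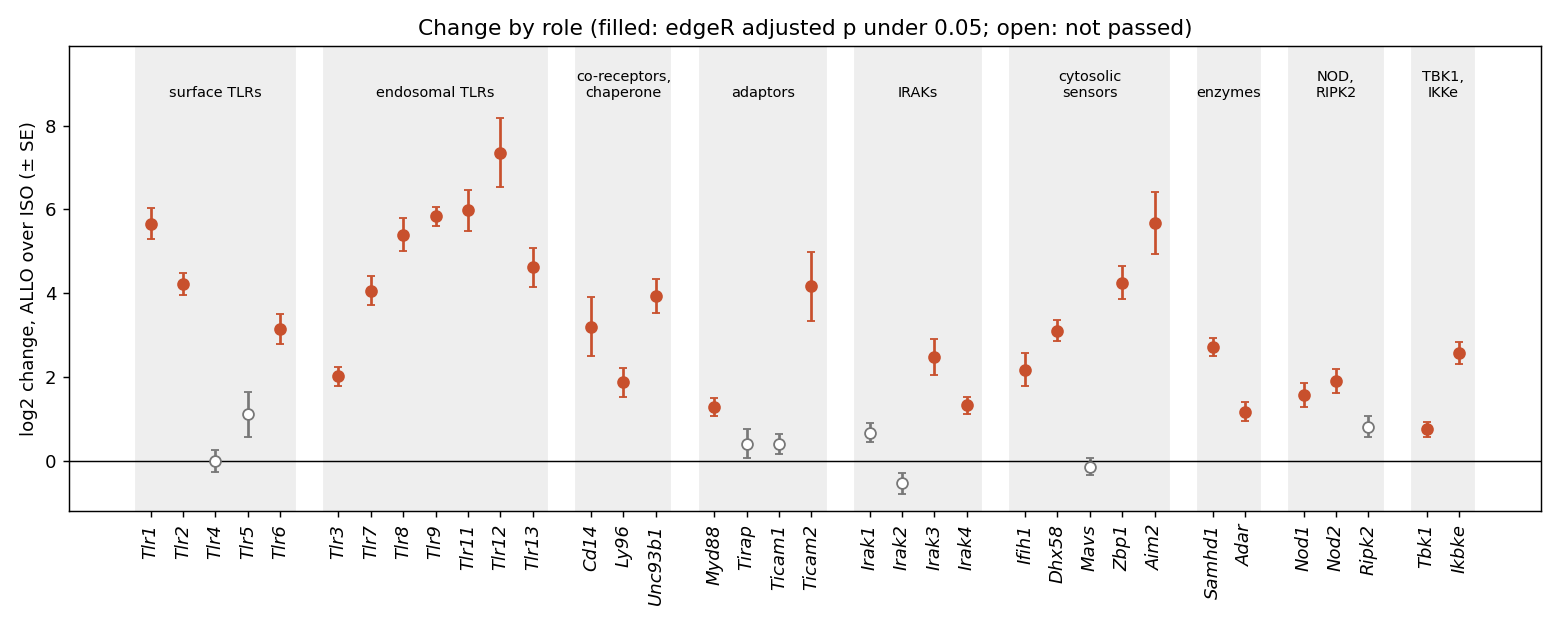
Fitted log2 change of ALLO over ISO for the 35 tested genes by role, with the standard error as bars. Filled points passed edgeR's test and open points did not. All 7 endosomal receptors are filled, of which Tlr11 and Tlr12 passed the filter on low counts only through ALLO. The 8 open points lie between -0.54 and 1.11.

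The make-up of the receptor transcripts differed between the groups. Summed over the 12 TLRs, the level was 18.8 and 20.8 RPKM in ISO and 222 and 172 RPKM in ALLO, a 9.96-fold ratio of means. Tlr4 made up 43.8% and 61.3% of that sum in ISO and 5.15% and 5.57% in ALLO. Tlr2 was first in ALLO, at 28.2% and 29.0% (18.04% and 12.5% in ISO). Tlr13 followed at 14.6% and 14.9%, against 8.80% and 3.38% in ISO. The endosomal receptors together took 29.5% and 21.2% in ISO and 54.0% and 54.1% in ALLO. Tlr9 had 1.97% and 1.84% in ISO and 10.2% and 12.03% in ALLO. The groups did not overlap in any of these shares. They overlapped for Tlr6, at 2.83% and 2.03% in ISO and 2.20% and 2.08% in ALLO. Among the endosomal receptors, Tlr3 went the other way, from 9.07% and 8.65% in ISO to 3.475% and 3.77% in ALLO. An exact two-sided permutation test of the Tlr4 share gave p = 0.333, the smallest that 2 against 2 libraries allow. It therefore adds nothing beyond the lack of overlap.

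**Figure D4:**
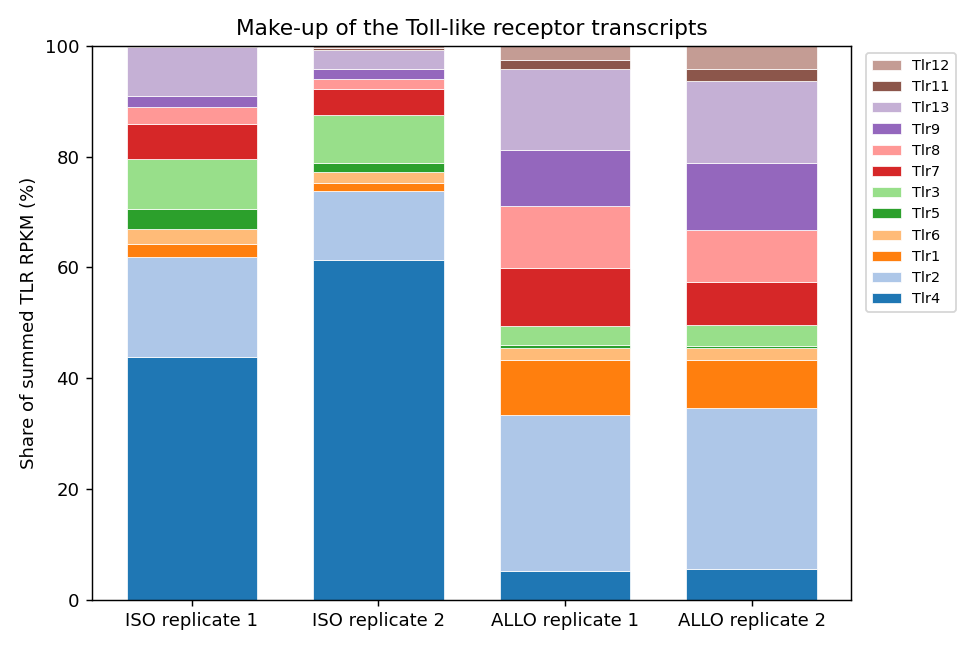
Share of each of 12 Toll-like receptor genes in their summed RPKM (%), 1 bar per library. Tlr4 (lowest segment) takes 43.8% and 61.3% in ISO and 5.15% and 5.57% in ALLO, while the segments of Tlr2, Tlr1, Tlr8, Tlr9 and Tlr13 are wider in both ALLO libraries.

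Of the 4 adaptor genes, Myd88 and Ticam2 rose, while Tirap and Ticam1 did not pass. Myd88, the adaptor of all TLRs but TLR3, had 28.4 and 22.7 CPM in ISO and 56.3 and 69.0 in ALLO. It was 2.45-fold higher (edgeR adjusted p = 0.0122, and 0.0557 without ISO replicate 2). Of its exonic bases, 11.3% lie opposite Acaa1a, and whether counting used the strand is not given in the sources used here. Tirap, the sorting adaptor that brings MyD88 to the membrane, had 14.9 and 13.2 CPM in ISO and 23.9 and 13.4 in ALLO, with a log2 change of 0.41 ± 0.35 (edgeR adjusted p = 0.416). Ticam1 encodes TRIF, the adaptor of TLR3 and of internalized TLR4, and had 20.1 and 17.6 CPM in ISO and 28.0 and 22.2 in ALLO (0.41 ± 0.24, edgeR adjusted p = 0.251). Ticam2, which encodes the bridging adaptor TRAM, had 16 and 2 counts in ISO and 210 and 187 in ALLO. Its scaled counts were 17.8 times as high (95% counting interval 9.14 to 39.3), with an edgeR adjusted p of 0.0189. The fitted value was 75.1-fold without ISO replicate 1 and 10.1-fold without ISO replicate 2, and the call was lost without ALLO replicate 1 (edgeR adjusted p = 0.0628). Ticam2 shares 21.3% of its exonic bases with Tmed7.

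Of the 4 IRAK kinases, which MyD88 recruits, 2 rose and 2 did not pass. Irak4, the first kinase of the complex, had 13.5 and 12.6 CPM in ISO and 32.4 and 33.0 in ALLO, 2.50-fold higher (edgeR adjusted p = 0.0111). Irak3 encodes IRAK-M, a member that restrains signalling in macrophages. It had 13.3 and 8.03 CPM in ISO and 78.6 and 40.2 in ALLO, 5.57-fold higher (edgeR adjusted p = 0.014). Irak1 had 68.1 and 67.5 CPM in ISO and 125 and 91.9 in ALLO, a log2 change of 0.68 ± 0.22 (edgeR adjusted p = 0.0683, and 0.0302 without ALLO replicate 2). Irak2 was the member with the highest level per length in ISO, at 16.8 RPKM on average, and was 17th at 11.6 RPKM in ALLO. It had 87.0 and 60.9 CPM in ISO and 43.8 and 58.2 in ALLO, and did not pass (log2 change -0.54 ± 0.26, edgeR adjusted p = 0.177).

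Among the cytosolic sensors, Aim2 and Zbp1 had the largest changes. Aim2 starts inflammasome assembly on DNA. Aim2 (ENSMUSG00000037860.15, chromosome 1, 173350879 to 173466040) had 1.46 and 0.241 CPM in ISO and 47.5 and 40.4 in ALLO. It was 51.0-fold higher (edgeR adjusted p = 0.00683), 176-fold without ISO replicate 1 and 29.5-fold without ISO replicate 2. Aim2 had 25 counts in ISO replicate 1 and 4 in ISO replicate 2, so the 176-fold value rests on 4 counts. Its scaled counts were 50.4 times as high (95% counting interval 30.94 to 95.85). Zbp1 can start necroptosis when it binds Z-RNA or Z-DNA. Zbp1 (ENSMUSG00000027514.14, chromosome 2, 173206612 to 173218923) had 5.32 and 9.48 CPM in ISO and 171 and 112 in ALLO. It was 19.1-fold higher, with a log2 change of 4.26 ± 0.40 (edgeR adjusted p = 0.00395). For Zbp1 the higher ISO library was replicate 2, as it was for Ifih1 and Adar among others, and no cause was tested.

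The RNA helicase genes rose less. Ifih1 had 12.8 and 22.9 CPM in ISO and 99.2 and 62.6 in ALLO, 4.54-fold higher (edgeR adjusted p = 0.0139). Dhx58, whose product modulates MDA5 signalling, had 4.21 and 3.92 CPM in ISO and 37.6 and 32.5 in ALLO, 8.601-fold higher (edgeR adjusted p = 0.00326). Mavs, the mitochondrial adaptor through which the RNA helicases signal, did not pass. It had 36.8 and 39.95 CPM in ISO and 31.0 and 38.8 in ALLO, a log2 change of -0.14 ± 0.21 (edgeR adjusted p = 0.646), and was at 0.06 with scaling by library size alone.

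Enzymes that clear or edit nucleic acids hold these sensors in check. Samhd1 encodes a dNTP hydrolase. Samhd1 (ENSMUSG00000027639.16, chromosome 2, 157097533 to 157135265) had 108 and 110 CPM in ISO and 745 and 687 in ALLO, 6.58-fold higher (log2 change 2.72 ± 0.22, edgeR adjusted p = 0.0034). Only Unc93b1 and Cd14 of the 36 genes had a higher level per length in ALLO, where Samhd1 was at 78.2 RPKM. Adar, the adenosine deaminase that edits double-stranded RNA, had 35.0 and 45.8 CPM in ISO and 101 and 80.8 in ALLO. It was 2.25-fold higher (edgeR adjusted p = 0.0181), but did not pass when ISO replicate 1 or ALLO replicate 1 was dropped (edgeR adjusted p = 0.0822 and 0.0516). Of its exonic bases, 16.8% lie opposite Chrnb2.

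The NOD proteins are cytosolic sensors of peptidoglycan fragments that signal through the kinase RIPK2. Nod1 had 53.9 and 34.6 CPM in ISO and 115 and 149 in ALLO, 2.98-fold higher (edgeR adjusted p = 0.0159, and 0.0548 without ISO replicate 2). Nod2 had 4.62 and 6.16 CPM in ISO and 19.5 and 20.8 in ALLO, 3.74-fold higher (edgeR adjusted p = 0.00972). Ripk2 had 17.4 and 13.0 CPM in ISO and 25.2 and 28.4 in ALLO. Its groups did not overlap, but its log2 change of 0.82 ± 0.26 did not pass (edgeR adjusted p = 0.0636).

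Of the paired kinases that activate interferon regulatory factors, Ikbke changed more than Tbk1 in fold. Ikbke (ENSMUSG00000042349.13, chromosome 1, 131254343 to 131279606), the inducible kinase IKK-epsilon, had 18.1 and 13.2 CPM in ISO and 106 and 81.2 in ALLO. It was 5.97-fold higher (edgeR adjusted p = 0.00441). Tbk1 had 40.1 and 43.0 CPM in ISO and 73.0 and 67.0 in ALLO, 1.69-fold higher (edgeR adjusted p = 0.0266). Tbk1 did not pass once ISO replicate 1, ISO replicate 2 or ALLO replicate 1 was dropped (edgeR adjusted p = 0.176, 0.143 and 0.0577). The difference in change between the 2 kinases was not tested.

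Set against the macrophage and monocyte marker sum of the same library, the members fell into 3 sets. The ratio was higher in both ALLO libraries than in both ISO libraries for 8 genes, Tlr1, Tlr8, Tlr9, Tlr11, Tlr12, Tlr13, Ticam2 and Aim2. Of these, Tlr11, Tlr12, Ticam2 and Aim2 passed the low-count filter only through the ALLO libraries, so their higher ratio adds no support. Of all genes tested, 5.15% were higher by this ratio. It was lower in both ALLO libraries for 22 members, beside 88.4% of all genes, and it overlapped for Tlr2, Tlr7, Cd14, Unc93b1 and Zbp1. Tlr9 RPKM was 0.0539% and 0.168% of the marker sum in ISO and 0.352% and 0.369% in ALLO. Unc93b1 was at 2.13% and 3.38% in ISO and 2.34% and 3.44% in ALLO, so its ratios overlapped. Tlr4 was at 1.20% and 5.58% in ISO and 0.178% and 0.171% in ALLO. With Csf1r, the macrophage growth factor receptor gene, as the only denominator, 7 ratios were higher (4.61% of all genes), 22 lower (89.2% of all genes) and 6 overlapping, and Ticam2 joined the overlapping genes. These ratios are a description, and the marker sum itself was 686 RPKM in ISO replicate 1 and 228 in ISO replicate 2.

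**Figure D5:**
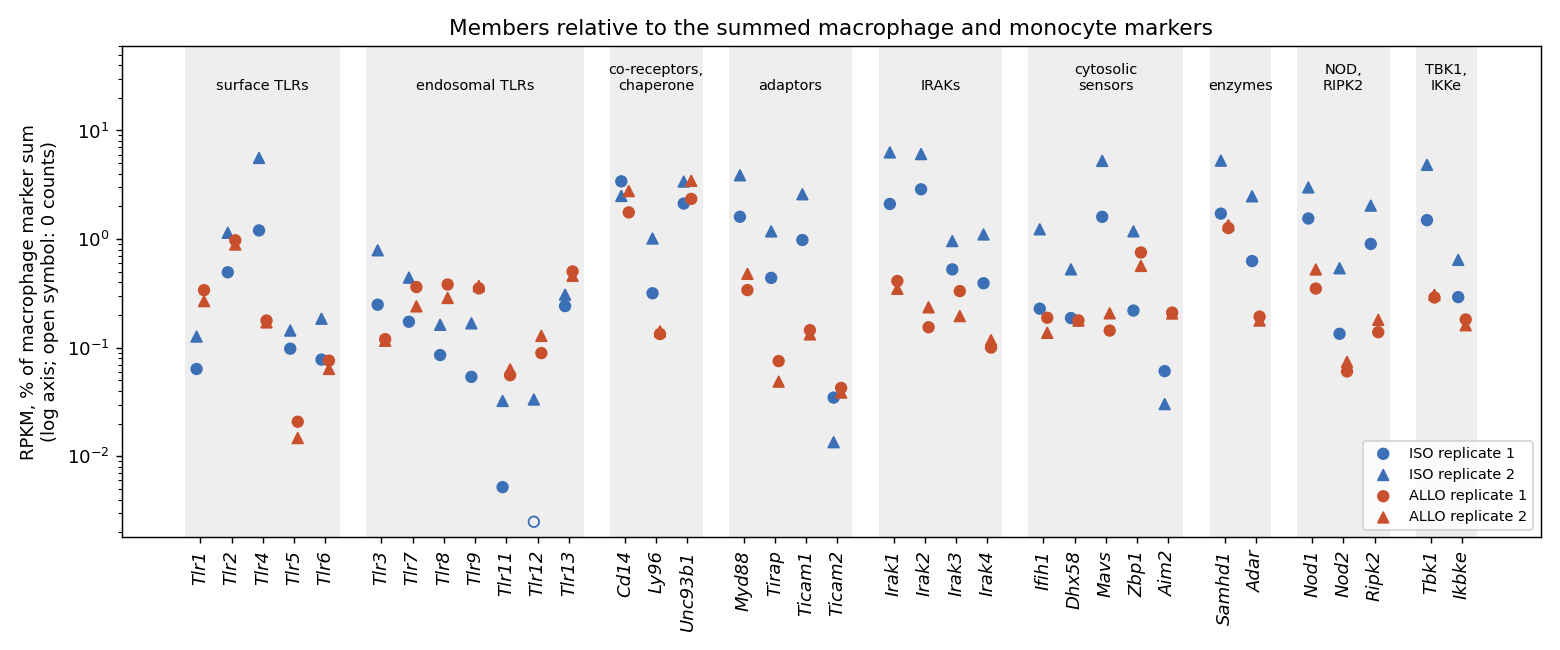
RPKM of each tested gene as a percentage of the summed macrophage and monocyte markers of the same library (log axis), by role, with blue for ISO, red for ALLO, circles for replicate 1, triangles for replicate 2 and an open circle for 0 counts. Red points lie above both blue points for 8 genes, 6 of them TLRs, and below both for 22, among them Irak1, Irak2, Mavs and Tbk1.

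Promoters of the members were searched for short binding motifs, since many members rose together. RefSeq (GRCm38.p6, the same assembly as mm10) gave windows of 300 bases, from 250 before to 50 after the start site, for 27 of the 36 genes. The core of the interferon-stimulated response element, GAAA, any 2 bases, GAAA on either strand, occurred in windows of 4 of the 27 genes (14.8%) and in 3.44% of all 32851 windows. The myeloid PU.1 motif GAGGAAGT, on either strand, occurred in 6 of 27 (22.2%) and 3.20%. A kappaB motif, GGGA, any 2 bases, TTCC on either strand, was found for Tlr3 alone (3.70%, against 1.47% of all windows). The members were counted by gene, and some have more than 1 window, whereas the share of all windows counts each window once. A match is a description of letters and not of binding.

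The stretches before the start site that hold an interferon core or a PU.1 motif are shown for the tested genes that carry them, so that the motifs can be seen in place. Capitals mark the motifs, and each stretch is written 5′ to 3′ on the strand of the gene. Tlr11 (plus strand, chr14:50357756-50357826) carries both motifs 3 bases apart. Tlr6 (minus strand, chr5:64959242-64959307, intronic in GENCODE M21 and upstream of a RefSeq start site) holds a pair of overlapping interferon cores on the opposite strand.
Tlr11: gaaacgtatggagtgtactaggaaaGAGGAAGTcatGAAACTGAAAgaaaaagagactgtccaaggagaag
Tlr6: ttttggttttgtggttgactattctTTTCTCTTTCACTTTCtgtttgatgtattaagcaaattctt
Myd88: gagcttctcgGAAAGCGAAAgaaggagggg
Tlr1: ttaaatgttgGAGGAAGTaggagcttga
Aim2: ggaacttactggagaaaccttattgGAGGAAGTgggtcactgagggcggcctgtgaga
Adar: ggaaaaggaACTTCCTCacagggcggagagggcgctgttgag
The Myd88 stretch (minus strand, chr9:119340039-119340068) overlaps an annotated exon of Myd88, and its interferon core starts 40 bases before the RefSeq start. The Tlr1 stretch (minus strand, chr5:64933564-64933591) lies just upstream of the gene, with the PU.1 motif starting 23 bases before the start. The Aim2 stretch (plus strand, chr1:173420466-173420523) lies in an intron of the gene and has the same motif starting 113 bases before an internal start site, and the Adar stretch (plus strand, chr3:89730468-89730509) lies in an intron of the gene, upstream of an internal start site, with the motif on the opposite strand. These 6 genes rose by between 2.25-fold (Adar) and a count ratio of 64.9 (Tlr11). Of all 35 tested members, with or without a motif, 27 rose, and a link between motif and rise was not tested. Ifih1 carries its interferon core after the start site, as Tlr9 does its PU.1 motif, and the sixth gene with a PU.1 motif is Trex1, which was at 0 counts.

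Lists of other genes of these pathways gave mixed counts, to be read against 18.4% of all genes higher and 14.8% lower. Of 17 genes of receptor trafficking and co-reception, 9 rose and 1 fell. Cd180, a TLR-like receptor that pairs with the product of Ly86, rose 78.8-fold (edgeR adjusted p = 0.00216). The endosomal peptide transporter gene Slc15a3 rose 26.8-fold and the receptor-cleaving protease gene Ctss 53.9-fold (edgeR adjusted p = 0.00326 and 0.00448). The Ctss value was 94.6-fold with ISO replicate 1 dropped. Lrrc32 fell, with a log2 change of -1.56 ± 0.30 (edgeR adjusted p = 0.017).

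Of 18 downstream kinases, adaptors and ubiquitin ligases, 6 rose and 1 fell, but 1 rose with ISO replicate 1 dropped, and 2 with ISO replicate 2 or ALLO replicate 1 dropped. Pik3ap1, the adaptor BCAP, was the largest of them, with a log2 change of 5.02 ± 0.56 (edgeR adjusted p = 0.00506), and was at 6.02 with ISO replicate 1 dropped and 4.42 with ISO replicate 2 dropped. Chuk, Nfkb1 and Tab2 rose by 0.85, 0.77 and 0.84 on the log2 scale, and none of the 3 passed with either ISO library dropped (edgeR adjusted p from 0.098 for Chuk to 0.245 for Nfkb1). The ubiquitin ligase gene Peli2 fell by 1.46. Of 8 TBK1 scaffolds and interferon regulatory factors, 6 rose (4 without ISO replicate 2). Irf8 and Irf5, the factors of myeloid cells, rose 30.3- and 17.7-fold, and Irf7 4.59-fold. Irf3, the constitutive factor activated by TBK1, did not pass (log2 change -0.23 ± 0.22, edgeR adjusted p = 0.464).

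Negative regulators rose in 8 of 16 cases and fell in 1. Tnfaip3, which encodes the ubiquitin-editing enzyme A20, had 502 and 259 counts in ISO and 3235 and 3991 in ALLO, 7.72-fold higher (edgeR adjusted p = 0.00574). Its partner gene Tnip1 rose 3.82-fold, Nlrc3 13.5-fold and the phosphatase gene Inpp5d 17.4-fold (29.3-fold with ISO replicate 1 dropped). Tollip, an inhibitor of IRAK1, had a log2 change of -0.71 ± 0.18 (edgeR adjusted p = 0.0354). No gene of that list fell once ISO replicate 1, ISO replicate 2 or ALLO replicate 1 was dropped.

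Of 16 other genes of cytosolic sensing, 7 rose and 2 fell. The ubiquitin ligase gene Trim25 rose 4.63-fold, the CpG-RNA binding gene Zc3hav1 3.77-fold and Ddx60 9.30-fold (5.57-fold with ALLO replicate 1 dropped). Lrrfip1 and Zcchc3 fell by 2.45 and 1.66 on the log2 scale, and Zcchc3 did not pass with ALLO replicate 1 dropped (edgeR adjusted p = 0.0579). Of 11 other nucleases tested, 5 rose and none fell. Dnase1l3, a secreted DNase of macrophages and dendritic cells, went from 6 counts over the ISO libraries to 2760 over the ALLO libraries, 370 times as high after scaling (95% counting interval 126 to 1797). It passed the filter on low counts only through the ALLO libraries, so it could hardly have come out lower. Pld4, an endolysosomal exonuclease that digests TLR ligands, rose 23.6-fold (45.4- and 15.6-fold with ISO replicate 1 and ISO replicate 2 dropped), and the lysosomal DNase gene Dnase2a 3.70-fold.

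Genes of endogenous TLR ligands moved both ways, with 1 of 12 tested higher and 3 lower. Lgals3, the galectin-3 gene, rose 16.1-fold (edgeR adjusted p = 0.00361), and Tnc, Vcan and Hspd1 fell by 1.07, 1.12 and 0.86 on the log2 scale. These counts rested on single libraries: 4 rose and 1 fell once ISO replicate 1 was dropped, none fell with ISO replicate 2 dropped, and 1 fell with either ALLO library dropped. Hspd1 did not pass in any of these 4 fits. S100a8 and S100a9, alarmins of neutrophils, had 849 and 1026 counts in ISO replicate 1, 54 and 68 in ISO replicate 2, and overlapped between the groups.

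Targets of these pathways were read last. Of 15 interferon-stimulated genes tested, 12 rose and none fell (11 to 14 when 1 library was left out). Cxcl10 rose 44.1-fold, Oas3 20.1-fold and Oasl1 11.2-fold (edgeR adjusted p = 0.00216, 0.0037 and 0.00374). Ifnb1, the interferon beta gene, was at 0 counts in all 4 libraries. Of 15 cytokine and feedback targets of NF-kappaB tested, 6 rose and none fell, but 12 of 16 rose with ISO replicate 1 dropped, and 3 with either ALLO library dropped. Il6 had 0 counts in ISO and 145 and 83 in ALLO, at least 15.7-fold higher on the floor of 6 counts per library. With 0 counts in ISO, Il6 could not have come out lower. Tnf had 39 and 2 counts in ISO and 152 and 174 in ALLO, and Il1b had 207 and 11 in ISO and 1948 and 2305 in ALLO, and neither passed (edgeR adjusted p = 0.111 and 0.0508). Of the ISO libraries, replicate 1 held more of both, and also more of the macrophage and neutrophil marker sums, and a link between these was not tested.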

How the data were processed

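Whole-transcriptome libraries of aortic graft tissue were compared, 2 labelled ISO and 2 labelled ALLO. The deposited table held raw counts per gene ID and a gene length in bases. The submitters' processing notes name Subread 1.6.4, featureCounts, DESeq2 1.30.0, R 4.0.3 and the build mm10, with no role for each. The strand setting is not given in the sources used here. Counts from 1 to 20 were even in 68.0% to 74.6% of cases and those over 100 in 49.5% to 50.9%, so both mates of a pair were probably counted, and floors were set at 6 counts (3 read pairs) per library.

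Counts were fitted with edgeR 4.0.16 (filterByExpr with a minimum count of 10, TMM scaling, quasi-likelihood test by group) in R 4.3.3, with Benjamini-Hochberg adjustment over 16498 genes. Depth ran from 17532344 to 20194854 counts, and the common biological coefficient of variation was 0.324. CPM and RPKM used TMM-scaled library sizes and the deposited lengths. Symbols matched 54723 of 54752 IDs. Coordinates come from the table and GENCODE M21, promoters from RefSeq (GRCm38.p6). The fit was checked on simulated counts.

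Alternatives were DESeq2 1.42.0, limma 3.58.1 (voom), other scalings and filters, a test against a 1.5-fold change, thinned and halved counts, a replicate block and leaving out each library. The sums without Klk1 and without Klk1 and Tcf4, the ratio to Csf1r alone and the share of all genes behind each ratio were added after seeing the data. All 36 members were followed, and from each pathway list up to 4 genes with the smallest adjusted p in the direction with more calls and up to 2 in the other could be named. Tnfaip3, Irf3, Tnf, Il1b, S100a8, S100a9, Ifnb1 and the named markers were chosen after their values were seen. Members and lists were chosen with earlier results of these data known. A few genes of these pathways, and 1 further promoter motif that was searched, are not reported here.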

Additional observations from a re-analysis of the deposited data

How the results depend on the processing

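Of 525 comparisons of a member with its main value (35 genes under 15 alternatives), 496 kept direction and side of the threshold, 14 lost the call, 6 gained it and 9 changed sign. Of the 27 genes that rose, 20 kept the call under every alternative run. The sign changes were all in Tlr4, Mavs and Tirap, which did not pass in the main fit. There the log2 change was near 0 for Tlr4 and Mavs and 0.41 for Tirap. Tlr4 was at -0.03 with upper quartile scaling, -0.02 with no filter, 0 with a mean count of at least 10, and -0.01 after thinning. It ran from -0.29 to 0.33 when 1 library was left out. Mavs was at 0.06 with library size scaling and from -0.3 to 0.05 when 1 library was left out, and Tirap from -0.03 to 0.77. The causes were not tested. Leaving out 1 library gave 3603 to 4651 called genes, against 5469, and 22 to 27 members higher. In those fits the lone sample of a group is assumed to vary like the other group. Members higher numbered 25 to 29 under the other alternatives, and none was lower in any. Samples with the same replicate number shared little (correlation of deviations 0.061), so the numbers were taken as names only. With the replicate block, 4873 genes were called, 26 members were higher and 0 were lower. With 2 libraries per group, depth limits Tlr11, Tlr12, Ticam2 and Aim2, which had 29 or fewer counts in ISO.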
